A study of Mus musculus with 36 samples.

Results

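The genes described here are 34 members of the p53 pathway and of the apoptosis machinery, out of 57126 gene IDs in the primordial germ cell (PGC) tables and 56262 in the gonad tables. They were chosen by gene symbol from a list, and each symbol matched 1 gene ID in both sets of tables. By role, 18 members promote cell death, 5 protect against it, and 11 are p53 and its relatives, their inhibitors, and p53 targets of cell cycle arrest and stress control. Every level is in TPM, a measure of transcript abundance that is scaled by length, so levels of different genes in a library can be set side by side.

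The libraries compared fetuses of diabetic dams (intrauterine hyperglycemia, IUHG) with fetuses of control dams. Diabetes was induced with 120 mg/kg of streptozotocin (STZ), a toxin of insulin-making cells, on day 3.5 of pregnancy, and dams with blood glucose above 14 mM on day 6.5 were kept. Whole gonads came from female wild-type fetuses at E13.5 (3 control and 3 IUHG libraries). PGCs were sorted by the Oct4-EGFP reporter from control and IUHG fetuses at E12.5 (no sex in the labels), at E13.5 in females and males, and at E16.5 in females and males (3 libraries in each of 10 groups). Control and IUHG PGC groups all carried the reporter, control dams are not described as injected, and cells were pooled from several gonads, so the litter of each library is not known. The labels call the 3 libraries of a group biological replicates.

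The p53 protein, encoded by Trp53, is a transcription factor that is kept low by Mdm2 and Mdm4 and that on DNA damage or stress switches on genes of cell cycle arrest, repair and death. In the mitochondrial pathway, BH3-only proteins such as Puma (Bbc3), Noxa (Pmaip1) and Bim (Bcl2l11) each block some or all of Bcl2, Bcl2l1 (Bcl-xL) and Mcl1, which frees Bax and Bak1 to open mitochondria and release activators of caspases. PGCs, the precursors of eggs and sperm, are prone to this pathway, and misplaced germ cells are known to die through Bax. Because p53 is controlled largely at the protein level, transcript levels of Trp53 are not a measure of p53 activity.

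The fits covered 13770 to 22065 genes whose mean reached 1 TPM in a group of the comparison. Aligned sequence, estimated from coverage, was 3.25 to 8.32 gigabases in PGC libraries and 3.89 to 4.95 in gonad libraries, with 13146 to 20126 and 17395 to 17650 genes at 1 TPM or more. All 8 germ cell markers averaged at least 1 TPM in every PGC group but E16.5 female IUHG, where 7 did. Replicates correlated least in E16.5 female IUHG PGCs, with a lowest r of 0.909 on log2(TPM + 1). The lowest r was 0.927 in E13.5 female IUHG PGCs and 0.949 in E16.5 female controls. E16.5 female IUHG replicate 3 had the least aligned sequence, 3.25 gigabases. Some libraries stood apart. IUHG replicate 3 of the E13.5 female PGCs had 16531 genes at 1 TPM or more against 14523 to 15289 in the other E13.5 female libraries, and control replicate 1 of the female gonads held Y-linked transcripts (summed TPM 51.3 over 4 genes) and the Sertoli cell gene Amh at 178 TPM. Member calls of the separately fitted comparisons and non-overlap counts that rest on the libraries that stood apart are given with and without them. Differences of members that did not pass are mostly given with all libraries only. In bulk libraries, fewer cells of a type and less RNA per cell cannot be told apart.

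In control PGCs the death machinery was led by a few abundant transcripts. At E12.5 the highest members were Bax at 587 ± 17.0 TPM (SD, n = 3), Trp53 at 497 ± 12.0, the inhibitor of apoptosis Birc5 (survivin, which also serves chromosome segregation) at 375 ± 21.4 and Diablo (Smac, which antagonises inhibitors of apoptosis) at 256 ± 13.3. By group means, 24 members reached 1 TPM in all 10 PGC groups, 9 in some groups, and 1, Bak1, in none. Bak1, the partner of Bax at the mitochondrial membrane, was listed at 0 to 0.687 TPM over the 30 PGC libraries and at 32.7 to 40.6 TPM over the 6 gonad libraries. Likewise Bcl2 lay at 0.0332 to 4.64 TPM in PGC libraries and at 11.5 to 15.0 in gonads, whereas Bcl2l1 lay at 25.2 to 221 and 52.2 to 59.3 TPM. In all, 9 members (Mdm4, Zmat3, Bak1, Bok, Bcl2l11, Apaf1, Casp8, Bcl2 and Xiap) were lower in every PGC library than in every gonad library, and 2 (Bax and Diablo) were higher. The gonad and PGC libraries were made and normalised separately, by different methods, so these levels are set side by side without a test, and cell source and library method cannot be told apart.

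**Figure D1:**
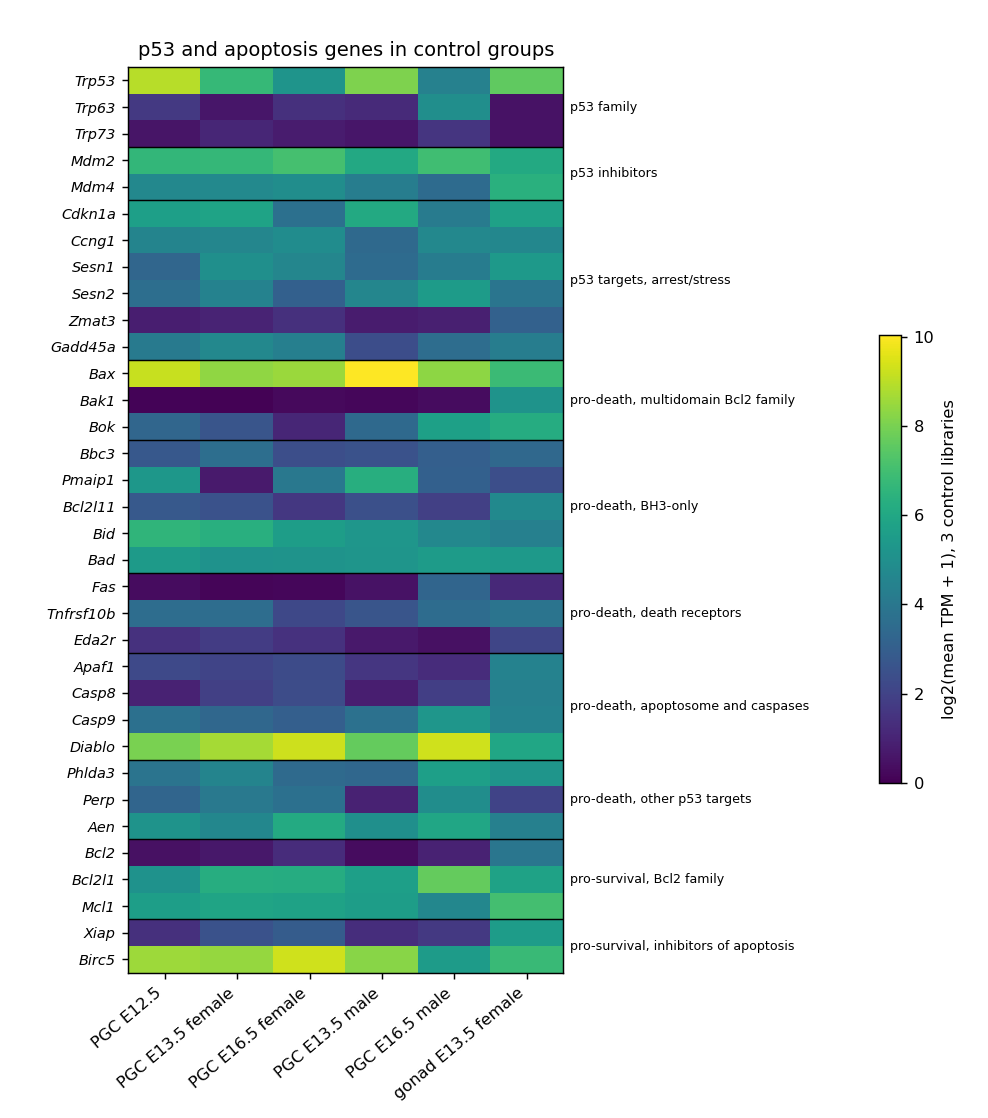
Mean levels of the 34 members in the control groups, as log2(mean TPM + 1) over 3 libraries. Rows are members grouped by role, columns are the 5 PGC groups and the E13.5 female gonads, and brighter cells are higher levels. Bak1 and Bcl2 are dark in all PGC columns and brighter in gonads (Bak1 32.7 to 35.7 TPM), Bax is brightest in E13.5 male PGCs (1054 ± 37.2 TPM), and Trp53 dims from E12.5 to E16.5.

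Trp53 (ENSMUSG00000059552.14, chr11:69471185-69482699, positions as listed in the PGC tables, mm39 per the submitters) fell through fetal germ cell development in both sexes. Control PGCs held 503, 483 and 504 TPM at E12.5. At E13.5 the levels were 116, 96.6 and 105 TPM in females and 259, 281 and 275 TPM in males, and at E16.5 they were 34.3, 42.7 and 28.8 TPM in females and 18.2, 20.1 and 23.0 TPM in males. No 2 successive stages overlapped in either sex. The drop to E13.5 was larger in females (log2 fold change -2.22 ± 0.09 (SE), adjusted p = 6.24e-08, limma) than in males (log2 fold change -0.87 ± 0.05 (SE), adjusted p = 5.21e-07), and control females were below control males at E13.5 (log2 fold change -1.35 ± 0.09 (SE), adjusted p = 1.95e-06) and above them at E16.5 (log2 fold change 0.75 ± 0.17 (SE), adjusted p = 0.00465, lost at 0.37 with quantile normalization). Reads of Trp53 could be shared with its processed copy Trp53-ps, which was listed at 0 to 2.11 TPM in PGC libraries.

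The relatives of p53 moved otherwise. Trp63, which encodes p63, was at 1.40, 1.23 and 1.18 TPM in control male PGCs at E13.5 and at 31.4, 25.6 and 33.5 TPM at E16.5, without overlap (log2 fold change 3.77 ± 0.13 (SE), adjusted p = 5.32e-08). In control females at E16.5 it was at 1.39, 1.58 and 1.89 TPM. Trp73 ranged from 0.228 to 2.38 TPM in all control PGC libraries. Of the inhibitors, Mdm2, the ubiquitin ligase that marks p53 for degradation, rose from 62.7, 68.5 and 66.8 TPM at E13.5 to 129, 130.4 and 117 TPM at E16.5 in males (log2 fold change 0.91 ± 0.07 (SE), adjusted p = 3.85e-06). In females Mdm2 rose from 105, 95.02 and 105 TPM at E13.5 to 119, 146 and 142 TPM at E16.5 (log2 fold change 0.41 ± 0.12 (SE), adjusted p = 0.0153; lost on FPKM and, at 0.15 with adjusted p = 0.255, with median-of-ratios scaling). Mdm4 fell in males from E13.5 to E16.5 (log2 fold change -0.76 ± 0.10 (SE), adjusted p = 0.000134).

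Among the p53 targets of arrest and stress control, Cdkn1a (p21, an inhibitor of cyclin-dependent kinases) was lower at E16.5 than before. It was at 45.4, 55.6 and 48.7 TPM at E12.5, 47.3, 62.2 and 58.4 TPM in E13.5 females and 63.0, 68.1 and 70.0 TPM in E13.5 males, against 11.3, 15.1 and 9.64 TPM in E16.5 females and 20.1, 14.6 and 16.1 TPM in E16.5 males. The E16.5 libraries lay below every earlier library in both sexes, with a log2 fold change of -2.14 ± 0.20 in females (adjusted p = 1.73e-05) and -1.93 ± 0.12 in males (adjusted p = 1.04e-06). Gadd45a, a DNA damage response gene, split by sex at E13.5, with 21.0, 24.8 and 27.5 TPM in females and 3.51, 5.55 and 3.57 TPM in males (log2 fold change 2.30 ± 0.18 (SE), adjusted p = 7.17e-06). Sesn1, a stress sensor that restrains mTORC1, was also higher in E13.5 females (log2 fold change 1.496 ± 0.14 (SE), adjusted p = 1.501e-05), and so was Ccng1 (cyclin G1; log2 fold change 1.20 ± 0.13 (SE), adjusted p = 4.60e-05).

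Promoter windows were looked up in RefSeq for the members (250 bases before to 50 after each gene start, build GRCm38). Of the 34 members, 29 had a window, and Trp63, Zmat3, Pmaip1, Tnfrsf10b and Perp had none in the table. The p53 response element is built from copies of a 10-base consensus, here called the p53 decamer, which reads the same on both strands and was searched in its degenerate form with no mismatch. It was found in 9 members (31.0% of those with a window) and in 9.55% of all 27025 genes with a window. Genes with several starts had several windows, 42 for the 29 members and 32851 for all genes. The list holds p53 targets by choice, and the shares were not tested. A pair of decamers at most 13 bases apart, which makes a complete p53 element, occurred in Cdkn1a alone among members and in 0.0740% of all genes. A match describes letters and does not show binding. The matches are shown for Cdkn1a, which passed no test between IUHG and control, and for the members that passed such a test. They are given with 20 flanking bases, read 5′ to 3′ on the gene's strand, and capitals mark the decamers.
Cdkn1a: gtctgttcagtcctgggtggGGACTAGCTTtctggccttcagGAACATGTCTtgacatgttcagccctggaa
Trp53: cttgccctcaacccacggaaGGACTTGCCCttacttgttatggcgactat
Ccng1: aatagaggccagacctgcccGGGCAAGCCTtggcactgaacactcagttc
Sesn1: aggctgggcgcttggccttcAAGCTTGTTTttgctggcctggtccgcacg
Gadd45a: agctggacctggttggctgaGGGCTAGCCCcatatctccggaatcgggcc
Bax: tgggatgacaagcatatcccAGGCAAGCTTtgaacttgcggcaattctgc
Birc5: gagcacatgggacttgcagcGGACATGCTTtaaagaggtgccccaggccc
The Cdkn1a stretch lies at chr17:29090886-29090957 on the + strand, upstream of the more distal of its 2 annotated starts, the Trp53 stretch at chr11:69580264-69580313 (+), the Gadd45a stretch at chr6:67037418-67037467 (− strand) and the Bax stretch at chr7:45467070-45467119 (−). The Ccng1 stretch lies at chr11:40755442-40755491 (−), the Sesn1 stretch at chr10:41887246-41887295 (+) and the Birc5 stretch at chr11:117848989-117849038 (+). The same motif was found in Mdm2 and Aen.

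Pro-death members differed by stage and sex in control PGCs, and the largest of their differences was in Pmaip1 (Noxa, a BH3-only protein), between the sexes at E13.5. It was at 27.2, 37.7 and 52.1 TPM at E12.5, 85.0, 76.0 and 72.6 TPM in E13.5 males and 0.190, 0.241 and 1.51 TPM in E13.5 females. Both E13.5 groups stood outside the E12.5 range, on opposite sides of it, and the sexes differed with log2 fold change -5.67 ± 0.27 (SE), adjusted p = 3.59e-07. At E16.5 Pmaip1 was at 14.5, 15.2 and 15.5 TPM in females, a rise (log2 fold change 3.37 ± 0.32 (SE), adjusted p = 2.35e-05), and at 9.23, 7.37 and 5.88 TPM in males, a fall (log2 fold change -3.23 ± 0.14 (SE), adjusted p = 1.86e-07). The labels of the E12.5 pools give no sex. The methods describe assigning gonads to a sex, by Sry PCR or morphology, for this stage too. The sex make-up of the E12.5 pools is thus not known, and stage and sex cannot be told apart in comparisons with E12.5. Y-linked genes summed to 194 to 212 TPM in E12.5 controls, 151 to 183 TPM in E13.5 male controls and 0 to 0.0187 TPM in E13.5 female controls. The sex make-up was not tested.

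Bax (ENSMUSG00000003873.12, chr7:45111121-45116322) was at 1065, 1012 and 1084 TPM in E13.5 males, above all other control groups, and at 350.3, 299 and 341 TPM in E13.5 females (log2 fold change -1.67 ± 0.08 (SE), adjusted p = 3.44e-07). By E16.5 it was at 387, 367 and 341 TPM in females and 333, 327 and 318 TPM in males, and the sexes no longer passed (log2 fold change 0.16 ± 0.07 (SE), adjusted p = 0.0605). Bok, a relative of Bax and Bak1, took the other course in males, from 10.8, 10.5 and 8.25 TPM at E13.5 to 57.6, 54.4 and 40.3 TPM at E16.5 (log2 fold change 2.25 ± 0.15 (SE), adjusted p = 2.16e-06), and was at 1.38, 1.81 and 0.137 TPM in E16.5 females. Fas, the receptor of Fas ligand, was listed at 0 to 0.646 TPM in the other control PGC groups and at 7.44, 8.19 and 10.4 TPM in E16.5 males (log2 fold change 2.78 ± 0.18 (SE), adjusted p = 1.87e-06). Casp9, the initiator caspase of the apoptosome, rose there too (log2 fold change 1.54 ± 0.09 (SE), adjusted p = 8.04e-07).

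Perp, a p53 target at cell junctions, was low in male PGCs at E13.5. In controls it was at 8.87, 10.0 and 7.09 TPM at E12.5, 15.8, 15.7 and 15.4 TPM in E13.5 females and 1.17, 0.920 and 0.811 TPM in E13.5 males, and at 24.1, 30.1 and 33.8 TPM in E16.5 males. The male E13.5 libraries were below every library of the other control PGC groups (log2 fold change 3.08 ± 0.16 (SE), adjusted p = 5.57e-07 for females over males, and log2 fold change 3.94 ± 0.15 (SE), adjusted p = 8.77e-08 from E13.5 to E16.5 in males). Phlda3, a repressor of Akt signalling, rose in the same male interval from 9.07, 8.49 and 9.86 to 49.1, 47.2 and 53.7 TPM (log2 fold change 2.33 ± 0.09 (SE), adjusted p = 9.85e-08).

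The pro-survival members also parted by sex at E16.5. Bcl2l1 was at 221, 197 and 189 TPM in E16.5 males and 67.6, 68.8 and 85.0 TPM in E16.5 females (log2 fold change -1.45 ± 0.11 (SE), adjusted p = 1.52e-05). Birc5 was at 634, 639 and 621 TPM in E16.5 females and 40.9, 44.3 and 47.0 TPM in E16.5 males, the reverse order (log2 fold change 3.81 ± 0.08 (SE), adjusted p = 7.51e-08). Mcl1, a short-lived Bcl2 relative, was higher in E16.5 females (log2 fold change 1.11 ± 0.20 (SE), adjusted p = 0.00163), as was Xiap, a caspase inhibitor (log2 fold change 1.23 ± 0.25 (SE), adjusted p = 0.00254). In E16.5 males the blood marker list summed to 254 to 577 TPM in control (6 of 8 markers averaging at least 1 TPM) against 7.90 to 38.8 TPM in E16.5 female controls (5 of 8), and Sertoli markers to 195 to 218 TPM (6 of 6) against 22.3 to 29.7 TPM (4 of 6, Cst9 at 0). The part of other cells in the E16.5 male levels was not tested.

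Other members spanned a range of levels in PGCs. Tnfrsf10b, the mouse receptor of the death ligand TRAIL, lay at 1.30 to 18.8 TPM over the 30 PGC libraries, Apaf1, the scaffold of the apoptosome, at 0.980 to 12.2 TPM, and Bcl2l11 at 0.751 to 11.0 TPM. Casp8, the initiator caspase of death receptors, lay at 0 to 5.79 TPM, and Aen, a nuclease induced by p53, at 18.2 to 74.6 TPM. Sesn2, a relative of Sesn1, spanned 3.32 to 49.2 TPM. It was at 24.9, 16.2 and 22.2 TPM in E13.5 female and 18.8, 25.3 and 27.0 TPM in E13.5 male controls. Of the 34 members, 33 passed the expression filter in at least 1 PGC comparison, all but Bak1, and 32 passed it in gonads, all but Trp63 and Trp73.

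Counts over all members were read against the share of all genes called in the same direction. Of 30 members tested, 10 were higher in E13.5 females than at E12.5 and 6 lower, against 38.1% and 19.7% of all genes tested, and in E13.5 males 5 of 28 were higher and 15 lower (28.8% and 32.1%). From E13.5 to E16.5, 6 of 32 rose and 9 fell in females (34.3% and 19.6%), and 18 of 30 rose and 9 fell in males (55.5% and 25.9%). Females exceeded males in 16 of 30 at E13.5 and were below them in 5 (42.5% and 22.6%), and at E16.5 these numbers were 9 and 10 of 33 (33.2% and 38.9%). The median of all genes was itself shifted in these comparisons, by 0.27 (E13.5 female over E12.5), 0.31 (female E16.5 over E13.5), 0.62 (male E16.5 over E13.5), 0.28 and -0.11 (female over male at E13.5 and E16.5) on the log2 scale. With median-of-ratios scaling the splits became 9 higher and 12 lower, 4 and 11, 17 and 10, 14 and 10, and 9 and 13 in that order. With quantile normalization the member splits were 7 and 10, 5 and 12, 14 and 11, 14 and 10, and 11 and 11. Over all genes they were 4128 and 4276, 4575 and 4870, 6838 and 7987, 5137 and 4995, and 8040 and 7256. On FPKM the female split from E13.5 to E16.5 was 4 and 10, beside 5304 and 4081 over all genes. Mcl1 between the sexes at E13.5 (0.27) turned to -0.06 under median-of-ratios scaling. Bbc3 (0.48) and Trp73 (0.94) in males from E13.5 to E16.5 turned to -0.13 and -0.21 under quantile normalization.

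**Figure D2:**
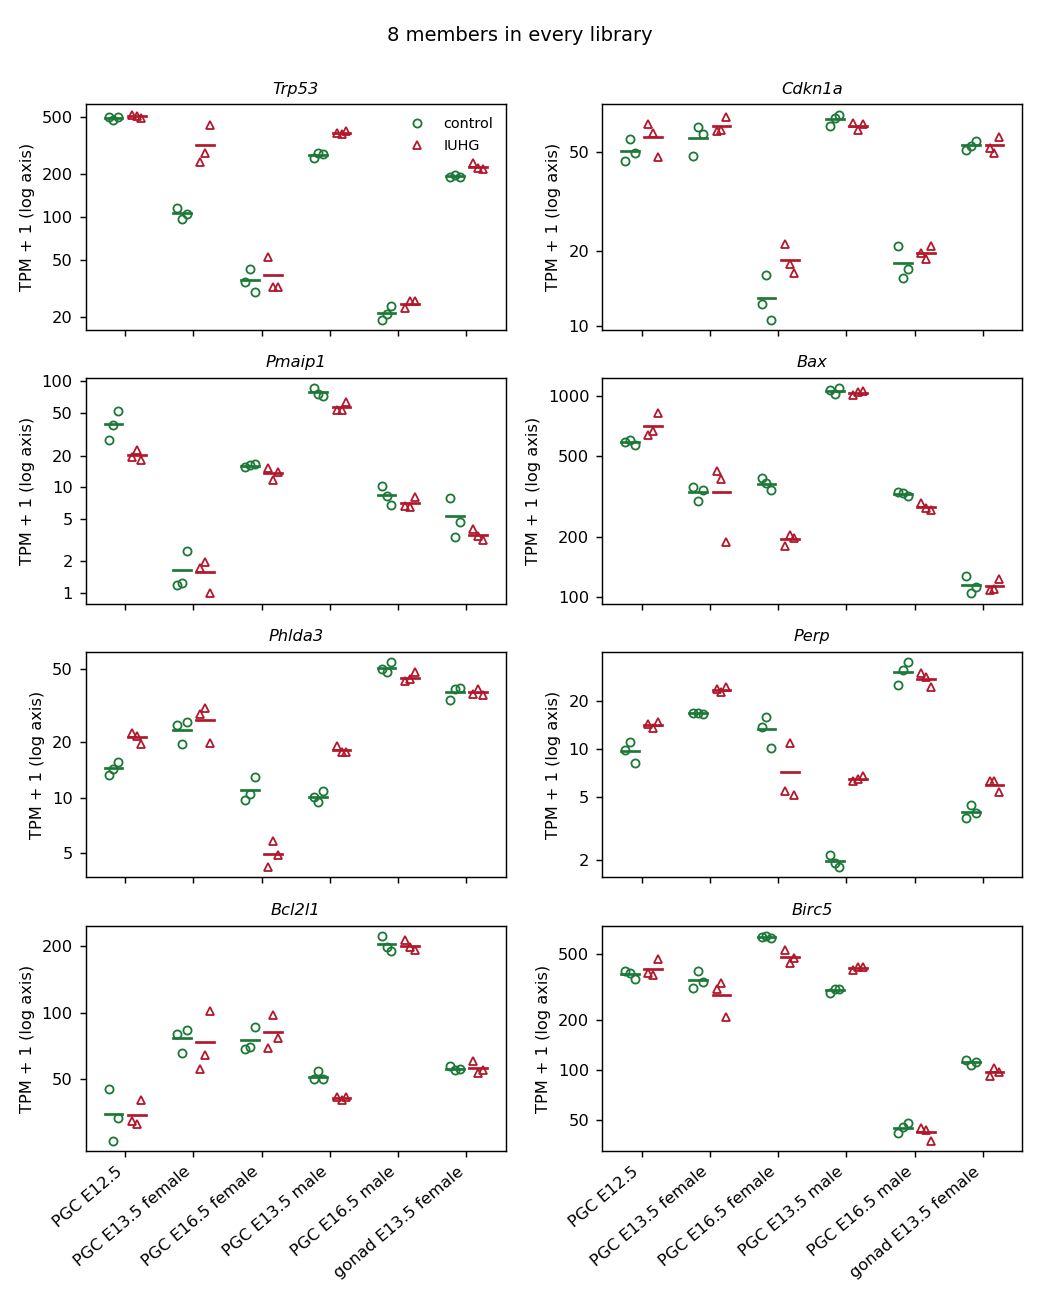
Levels of 8 members in all 36 libraries, as TPM + 1 on a log axis, with control libraries as circles, IUHG libraries as triangles and horizontal bars at group means. Trp53 in E13.5 females shows all 3 IUHG libraries (243 to 440.1 TPM) above all control libraries (96.6 to 116 TPM), and Bax in E16.5 females shows the reverse order (179 to 202 against 341 to 387 TPM).

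At E12.5, no member passed between IUHG and control PGCs, although 0.879% of 13770 genes were higher and 0.697% lower at an adjusted p under 0.05. Of the 30 members tested by limma, 8 had an unadjusted p under 0.05, beside 2160 of the 13770 genes. The lowest adjusted p was 0.0610, for Pmaip1, which was at 27.2, 37.7 and 52.1 TPM in control and 18.6, 21.6 and 17.1 TPM in IUHG (log2 fold change -0.95 ± 0.21). All 3 IUHG libraries lay below all control libraries. Without control replicate 1 it passed, at -1.18. In contrast, Phlda3 (adjusted p = 0.0762) was at 12.3, 13.4 and 14.7 TPM in control and 21.6, 20.6 and 18.7 TPM in IUHG, and Perp (adjusted p = 0.133) at 8.87, 10.0 and 7.09 TPM in control and 13.4, 12.47 and 13.7 TPM in IUHG, with every IUHG library above every control library. Trp53 itself was at 522, 510.3 and 499 TPM in IUHG (log2 fold change 0.04 ± 0.08). IUHG libraries lay wholly above control libraries in 8 members and wholly below in 2, against 13.3% and 9.12% of all genes. Pro-death members made up 7 of the 8 and both of the 2, among 16 of the 30 tested. The E12.5 pools, which carry no sex label, differed in their Y-linked genes, whose summed level was 194 to 212 TPM in control and 129.6 to 154 TPM in IUHG, so the sex mix and IUHG cannot be told apart here. Germ cell markers summed to 7861 to 8522 TPM in control and 6988 to 7785 TPM in IUHG (8 of 8 in both), interstitial markers to 5.55 to 7.28 TPM in control (2 of 6) and 0.660 to 1.37 TPM in IUHG (0 of 6), and their part was not tested.

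In E13.5 female PGCs, Trp53 was the 1 member that passed, where 1.06% of 16539 genes were higher and 1.99% lower. It was at 116, 96.6 and 105 TPM in control and at 243, 279 and 440.1 TPM in IUHG, 106 ± 9.48 against 321 ± 105 as mean ± SD (n = 3). IUHG replicate 3 was the highest library, and all 3 were well above the control libraries. The log2 fold change 1.55 ± 0.23 (SE), adjusted p = 0.0113, stood over a shift of 0.14 in the median of all genes. Without IUHG replicate 3 it was 1.30 (adjusted p = 0.000519), and without any 1 of the control libraries the call was lost at adjusted p of 0.0744 to 0.0968. The methods state a threshold for PGCs of P under 0.01 and a fold above 2 without naming an adjustment. On the unadjusted p of limma, Trp53 was the 1 member past it, beside 3.19% of genes higher and 2.89% lower. At E12.5 no member was past it (0.516% and 0.610% of genes).

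No other member passed in E13.5 females when this comparison was fitted by itself. A fit over all PGC groups called 11 members, 9 higher and 2 lower. That fit was not repeated without IUHG replicate 3. The share of all genes it called is not given here, so nothing particular to the members is read from its count. Eda2r, a p53-induced death receptor, was at 2.08, 2.12 and 3.12 TPM in control and 5.62, 3.88 and 8.89 TPM in IUHG (log2 fold change 1.01 ± 0.35 (SE), adjusted p = 0.140), and Xiap at 4.73, 4.58 and 4.89 TPM in control and 14.4, 5.88 and 15.0 TPM in IUHG (log2 fold change 1.06 ± 0.36 (SE), adjusted p = 0.135). Zmat3, an RNA-binding p53 target, was at 1.05, 0.798 and 1.08 TPM in control and 2.26, 1.97 and 4.02 TPM in IUHG. In all 3 the IUHG libraries were above the control libraries. Sesn2, grouped here with the p53 targets, had the opposite order, at 24.9, 16.17 and 22.2 TPM in control and 8.13, 16.12 and 14.0 TPM in IUHG. The canonical target Cdkn1a was at 47.3, 62.2 and 58.4 TPM in control and 59.7, 60.4 and 68.4 TPM in IUHG (log2 fold change 0.17 ± 0.19), and the groups overlapped. Bax was at 350.3, 299 and 341 TPM in control and 422, 383 and 186 TPM in IUHG, where IUHG replicate 3 lay below the control libraries and the other IUHG libraries above them. Of the 30 members tested, IUHG lay wholly above control in 12 and wholly below in 2 (19.8% and 13.2% of all genes). Those 12 included 3 of the 15 pro-death members tested and 3 of the 5 pro-survival ones, and 1 of the 2 was pro-death. Without IUHG replicate 3 the counts were 14 and 5 (23.6% and 21.8%). The median difference over all 18 pro-death members was 0.16, over the 5 pro-survival members 0.48 and over all genes 0.14, each on the log2(TPM + 1) scale. Without IUHG replicate 3 these medians were 0.19, 0.28 and 0.02, and over all alternatives they spanned 0.02 to 0.30 for pro-death and 0.28 to 0.68 for pro-survival members, the lowest for pro-death members on FPKM. Over these libraries germ cell markers summed to 5257 to 5518 TPM in control and 5924 to 6745 TPM in IUHG (8 of 8 in both), interstitial markers to 11.0 to 16.9 TPM in control and 6.99 to 10.4 TPM in IUHG (3 of 6 in both), and pregranulosa markers to 20.4 to 27.5 (6 of 8) and 13.4 to 23.2 TPM (5 of 8). Blood markers summed to 0.609 to 63.5 (5 of 8) and 2.34 to 62.2 TPM (4 of 8), and Sertoli markers to 35.7 to 43.9 (2 of 6, Amh at 0) and 34.5 to 53.7 TPM (1 of 6, with Sox9, Amh and Cst9 at 0). Their part was not tested.

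**Figure D3:**
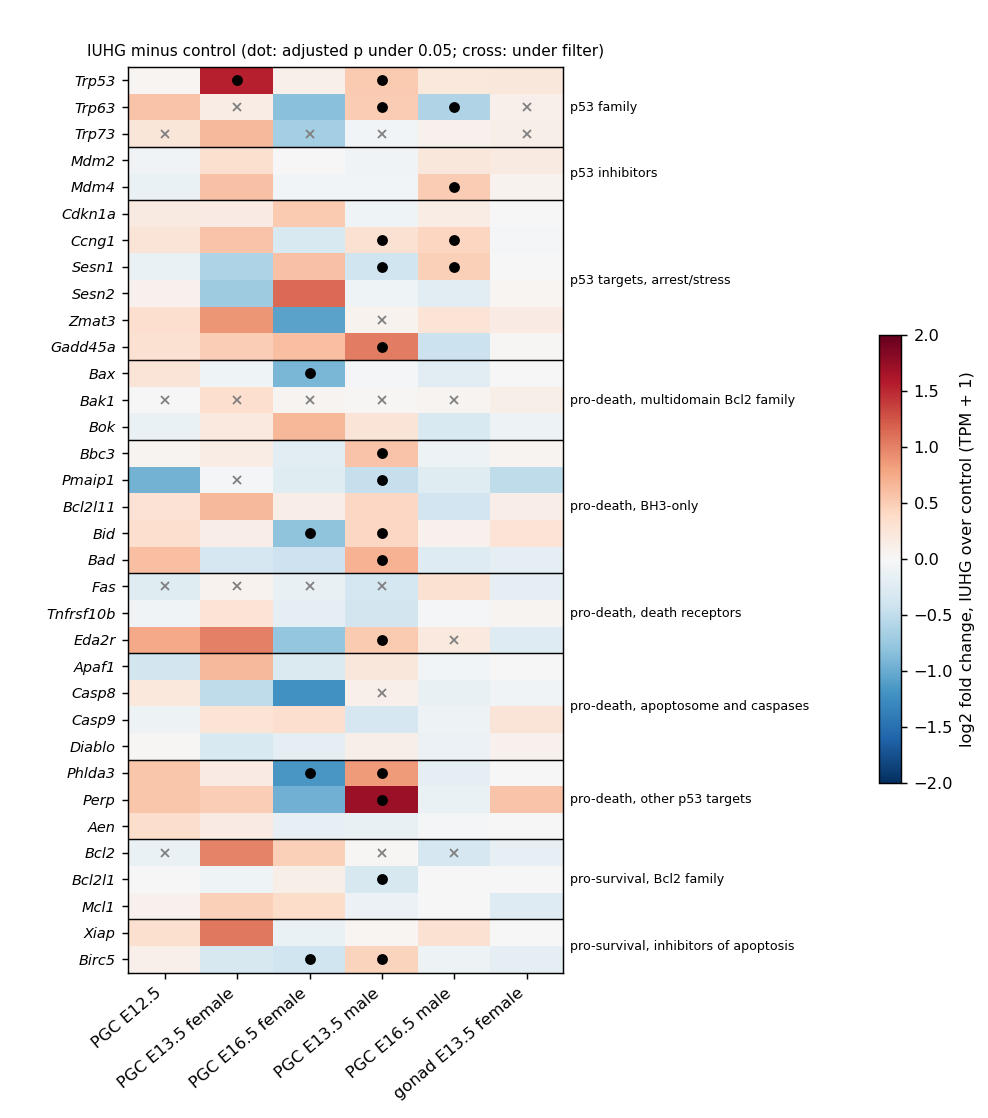
Differences between IUHG and control for the 34 members in the 6 comparisons, as log2 fold change on the TPM + 1 scale (red, higher in IUHG; blue, lower). A dot marks an adjusted p under 0.05 and a cross a member under the expression filter. Dots are most frequent in E13.5 male PGCs (14), against 1 in E13.5 female PGCs, 4 in each E16.5 sex and 0 in E12.5 PGCs and gonads. Each comparison was fitted separately, and this order was not kept in 1 fit over all PGC groups. That fit called 11 members in E13.5 females, 4 in E13.5 males and 12 in E16.5 females, and its share of all genes is not given.

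In E13.5 male PGCs, 14 of the 28 members tested passed, 11 higher and 3 lower in IUHG. This comparison called many genes, 15.2% of 14473 higher and 18.0% lower. With all PGC groups in 1 fit, 4 members passed, all higher, and the share of all genes called in that fit is not given here. IUHG and control libraries did not overlap in 13 members on the higher side and 5 on the lower (21.8% and 25.4% of all genes). Of the p53 family, Trp53 was at 259, 281 and 275 TPM in control and 386, 382 and 402 TPM in IUHG (log2 fold change 0.52 ± 0.05 (SE), adjusted p = 4.95e-05). The 3 IUHG libraries agreed closely and stood above the controls. Trp63, at 1.40, 1.23 and 1.18 TPM in control and 2.02, 2.12 and 2.60 TPM in IUHG, also rose (log2 fold change 0.51 ± 0.15 (SE), adjusted p = 0.0264), while Mdm2 (-0.07) and Mdm4 (-0.06) did not pass.

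Targets of arrest and stress control went both ways in E13.5 males. Gadd45a rose from 3.51, 5.55 and 3.57 TPM in control to 9.96, 9.67 and 8.80 TPM in IUHG (log2 fold change 1.03 ± 0.15 (SE), adjusted p = 0.000947), without overlap. Ccng1 rose by a smaller amount (log2 fold change 0.30 ± 0.10 (SE), adjusted p = 0.0489). Sesn1 fell from 9.21, 10.4 and 11.4 TPM in control to 7.40, 7.63 and 7.55 TPM in IUHG (log2 fold change -0.41 ± 0.10 (SE), adjusted p = 0.0151), and its call was lost without control replicate 3 (adjusted p = 0.0597). Cdkn1a was at 63.0, 68.1 and 70.0 TPM in control and 64.5, 60.4 and 64.3 TPM in IUHG and did not pass (log2 fold change -0.09 ± 0.06 (SE), adjusted p = 0.316).

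The largest member difference in E13.5 males was in Perp (ENSMUSG00000019851.9, chr10:18720768-18732821). It was at 1.17, 0.920 and 0.811 TPM in control and 5.26, 5.497 and 5.76 TPM in IUHG, so that every IUHG library was several times above every control library (log2 fold change 1.73 ± 0.14 (SE), adjusted p = 2.34e-05). Phlda3 rose from 9.07, 8.49 and 9.86 TPM in control to 18.1, 16.8 and 16.8 TPM in IUHG (log2 fold change 0.85 ± 0.09 (SE), adjusted p = 0.000137). Perp and Gadd45a were the 2 members with an unadjusted p under 0.01 and a fold above 2, beside 2.13% of genes higher and 1.93% lower.

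Among BH3-only members of E13.5 males, 3 rose and 1 fell. Bad, which binds Bcl2l1, rose from 36.8, 34.5 and 39.2 TPM in control to 62.3, 62.0 and 56.7 TPM in IUHG (log2 fold change 0.70 ± 0.07 (SE), adjusted p = 9.34e-05). Bbc3 (Puma) rose from 4.68, 5.17 and 4.42 TPM in control to 7.64, 7.03 and 8.08 TPM in IUHG (log2 fold change 0.58 ± 0.11 (SE), adjusted p = 0.00394). Bid, which links death receptors to mitochondria, rose from 36.5, 43.1 and 32.8 TPM in control to 46.5, 49.3 and 54.0 TPM in IUHG (log2 fold change 0.41 ± 0.10 (SE), adjusted p = 0.0110). Pmaip1 fell from 85.0, 76.0 and 72.6 TPM in control to 52.8, 53.2 and 63.4 TPM in IUHG (log2 fold change -0.46 ± 0.09 (SE), adjusted p = 0.00314). In all 4 the groups stood apart. Bax, the effector, was at 1065, 1012 and 1084 TPM in control and 1003, 1039.5 and 1056 TPM in IUHG (log2 fold change -0.03 ± 0.04 (SE), adjusted p = 0.631). Of the death receptors, Eda2r rose from 0.538, 0.841 and 0.467 TPM in control to 1.18, 1.38 and 1.35 TPM in IUHG (log2 fold change 0.52 ± 0.17 (SE), adjusted p = 0.0408). None of the 3 apoptosome and caspase members tested passed.

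The pro-survival members of E13.5 males parted. Bcl2l1 fell from 48.8, 53.4 and 48.8 TPM in control to 40.3, 39.0 and 40.4 TPM in IUHG (log2 fold change -0.33 ± 0.06 (SE), adjusted p = 0.00357) and Birc5 rose from 289, 308 and 307 TPM in control to 400.1, 416 and 414 TPM in IUHG (log2 fold change 0.44 ± 0.04 (SE), adjusted p = 8.43e-05), both without overlap. By class, 6 pro-death members rose and 1 fell, and 1 pro-survival member rose and 1 fell. The median over all 18 pro-death members was 0.17 and over the 5 pro-survival members 0.03, beside -0.02 over all genes (log2). Over all alternatives these medians spanned 0.13 to 0.29 and -0.11 to 0.06, and the second was below 0 without control replicate 1 or 3 or IUHG replicate 1 or 3. When 1 library was left out, Ccng1 and Eda2r passed only without control replicate 2, and Trp63 only without control replicate 1 or IUHG replicate 1 (Ccng1, Trp63 and Eda2r had an adjusted p of 0.0334 to 0.154, 0.0400 to 0.0942 and 0.0389 to 0.119, limma), whereas 10 members, namely Trp53, Gadd45a, Bbc3, Pmaip1, Bid, Bad, Phlda3, Perp, Bcl2l1 and Birc5, passed whichever library was left out. Over the same libraries the germ cell marker list summed to 9208 to 9909 TPM in control and 7999 to 8309 TPM in IUHG (8 of 8 markers in both), interstitial markers to 7.61 to 8.61 (3 of 6) and 2.67 to 4.22 TPM (1 of 6), and Y-linked genes to 151 to 183 and 116 to 119.6 TPM. Sertoli markers summed to 129 to 141 TPM in control and 135 to 189 TPM in IUHG (6 of 6 in both), and 1 rose and 1 fell. Pregranulosa markers summed to 24.3 to 31.3 (4 of 8) and 19.1 to 22.2 TPM (5 of 8), and blood markers to 2.28 to 76.4 (4 of 8) and 0.968 to 1.58 TPM (0 of 8). Their part in the member differences was not tested.

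**Figure D4:**
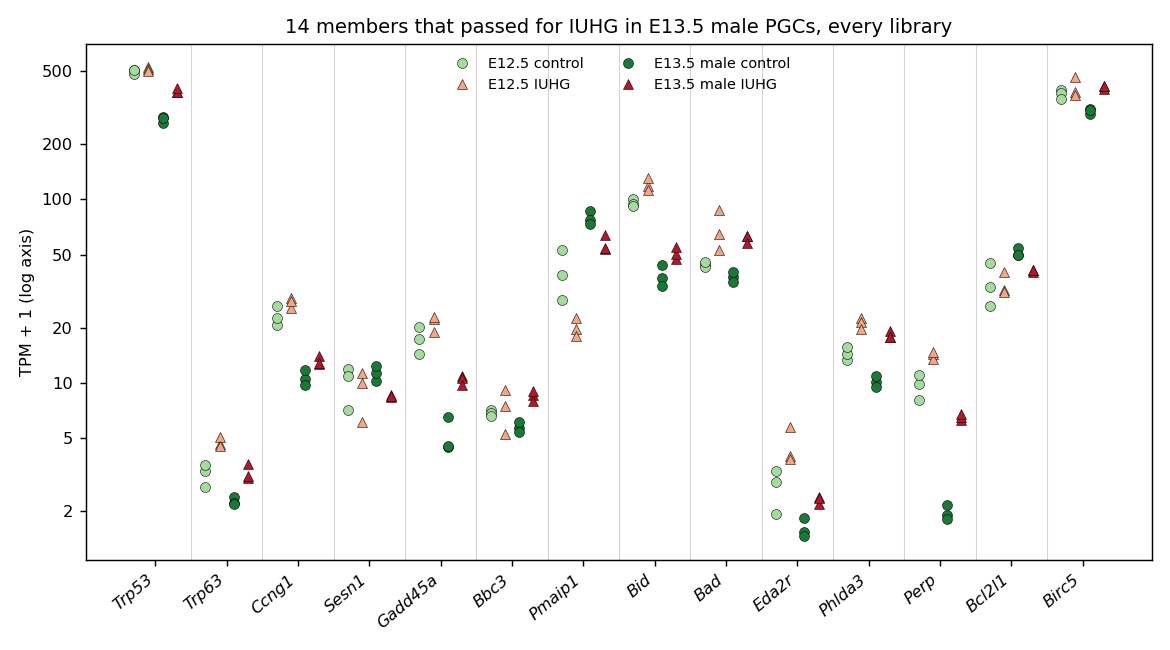
The 14 members that passed in E13.5 male PGCs, in every library of E12.5 and E13.5 males, as TPM + 1 on a log axis (circles, control; triangles, IUHG; pale, E12.5; dark, E13.5 male). Perp reads 7.09 to 13.7 TPM at E12.5, 0.811 to 1.17 in E13.5 male control and 5.26 to 5.76 in E13.5 male IUHG libraries.

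The E13.5 male controls entered both the comparison with E12.5 and the comparison with IUHG, so the 2 sets of differences share libraries and are given side by side only. Perp differed by -2.29 between E12.5 and E13.5 male controls and by 1.73 with IUHG (log2). For Gadd45a these values were -1.74 and 1.03, for Trp53 -0.87 and 0.52, for Bid -1.32 and 0.41, for Pmaip1 1.02 and -0.46, for Bcl2l1 0.59 and -0.33, and for Bax 0.84 and -0.03. As levels, E13.5 male IUHG libraries held Perp at 5.51 ± 0.248 TPM, with 13.2 ± 0.625 TPM in E12.5 IUHG and 8.67 ± 1.48 TPM in E12.5 control libraries.

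By E16.5 in female PGCs, 4 of the 31 members tested fell in IUHG and none rose, where 2.56% of 18753 genes were higher and 3.08% lower. When all PGC groups shared 1 fit, 12 members passed, 3 higher and 9 lower, and the share of all genes called in that fit is not given here. Bax was at 387, 367 and 341 TPM in control and 179, 202 and 197 TPM in IUHG, with a wide gap between the groups (log2 fold change -0.92 ± 0.09 (SE), adjusted p = 0.00136), and it passed whichever library was left out. Bid fell from 55.9, 43.4 and 41.0 TPM in control to 32.6, 22.2 and 24.9 TPM in IUHG (log2 fold change -0.80 ± 0.20 (SE), adjusted p = 0.0470). Phlda3 fell from 8.73, 9.43 and 12.0 TPM in control to 3.18, 4.79 and 3.86 TPM in IUHG (log2 fold change -1.16 ± 0.28 (SE), adjusted p = 0.0449) and Birc5 fell from 634, 639 and 621 TPM in control to 525, 437 and 470.1 TPM in IUHG (log2 fold change -0.41 ± 0.08 (SE), adjusted p = 0.0256). When 1 library was left out, Bid passed only without IUHG replicate 1, Phlda3 only without IUHG replicate 2 and Birc5 only without IUHG replicate 1 or 2, with adjusted p of 0.0330 to 0.186, 0.0440 to 0.167 and 0.0170 to 0.118. At an unadjusted p under 0.01 and a fold above 2, Phlda3 was the 1 member called (1.94% of genes higher and 2.92% lower). Trp53 was at 34.3, 42.7 and 28.8 TPM in control and 52.1, 31.5 and 31.5 TPM in IUHG, and the groups overlapped (log2 fold change 0.10 ± 0.23 (SE), adjusted p = 0.828). Cdkn1a lay higher in all IUHG libraries, at 20.5, 16.7 and 15.4 TPM against 11.3, 15.1 and 9.64, and did not pass (log2 fold change 0.52 ± 0.24 (SE), adjusted p = 0.222).

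IUHG lay wholly below control in 11 members and wholly above in 2 at E16.5 in females, against 14.1% and 14.9% of all genes, and 8 of those 11 and 0 of the 2 were pro-death, among 16 of the 31 tested. The median over all 18 pro-death members was -0.23, over the 5 pro-survival members 0.11 and over all genes 0.04 (log2). Over all alternatives the first spanned -0.41 to -0.23, the far end with a pseudocount of 0.1, and the second 0.05 to 0.44, the highest without IUHG replicate 2. Perp was at 12.7, 14.8 and 9.07 TPM in control and 4.42, 9.86 and 4.10 TPM in IUHG, and IUHG replicate 2 reached into the control range (log2 fold change -0.96 ± 0.35 (SE), adjusted p = 0.144). Germ cell markers summed to 3025 to 3341 TPM in control (8 of 8) and 2628 to 2994 TPM in IUHG (7 of 8), and 4 of the 8 fell. Interstitial markers summed to 22.8 to 66.9 TPM in control (4 of 6) and 87.2 to 122 TPM in IUHG (6 of 6), and blood markers to 7.90 to 38.8 (5 of 8) and 9.29 to 294 TPM (4 of 8, Hbb-y at 0), with IUHG replicate 3 as the highest. Their part in the member differences was not tested.

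In E16.5 male PGCs, 3 of the 31 members tested rose in IUHG and 1 fell, beside 3.38% and 2.54% of 20945 genes. Mdm4, which holds p53 inactive, rose from 10.8, 10.7 and 9.48 TPM in control to 14.8, 14.9 and 15.5 TPM in IUHG (log2 fold change 0.51 ± 0.11 (SE), adjusted p = 0.0332). Ccng1 rose from 23.5, 24.1 and 25.8 TPM in control to 33.7, 32.2 and 33.5 TPM in IUHG (log2 fold change 0.42 ± 0.09 (SE), adjusted p = 0.0272) and Sesn1 from 16.8, 17.9 and 18.1 TPM in control to 24.2, 25.8 and 24.7 TPM in IUHG (log2 fold change 0.48 ± 0.09 (SE), adjusted p = 0.0226). Trp63 fell from 31.4, 25.6 and 33.5 TPM in control to 22.2, 20.7 and 16.0 TPM in IUHG (log2 fold change -0.60 ± 0.14 (SE), adjusted p = 0.0457). The groups did not overlap in any of the 4, yet leaving out any 1 library ended the calls of Mdm4, Ccng1 and Trp63 (adjusted p of 0.0508 to 0.130, 0.0575 to 0.111 and 0.0519 to 0.135), and Sesn1 passed only without IUHG replicate 1 (0.0454 to 0.121 over all 6). No pro-death or pro-survival member passed. At an unadjusted p under 0.01 and a fold above 2 no member was called (0.516% and 0.602% of genes). IUHG lay wholly above control in 5 members and wholly below in 5 (17.8% and 12.0% of all genes). Under FPKM, median-of-ratios and quantile scaling Bax, at 333, 327 and 318 TPM in control and 293, 277 and 270.2 TPM in IUHG, passed as a second member that fell (log2 fold change -0.22 ± 0.06 and adjusted p = 0.0520 on TPM). Blood markers summed to 254 to 577 TPM in control (6 of 8) and 59.0 to 284 TPM in IUHG (5 of 8, Hbb-y at 0), Sertoli markers to 195 to 218 (6 of 6) and 101 to 134 TPM (5 of 6), and germ cell markers to 4168 to 4644 and 4423 to 4572 TPM (8 of 8 in both). Their part in these differences was not tested.

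In E13.5 female gonads no member passed by limma, with 1.43% of 18150 genes higher and 1.05% lower in IUHG. Of the 32 members tested, 8 had an unadjusted p under 0.05, beside 3607 of the 18150 genes. Trp53 came nearest, at 191, 197 and 189 TPM in control and 238, 219 and 218 TPM in IUHG (log2 fold change 0.22 ± 0.05 (SE), adjusted p = 0.0572). Perp was at 2.67, 3.45 and 2.97 TPM in control and 5.24, 5.28 and 4.36 TPM in IUHG (log2 fold change 0.57 ± 0.15 (SE), adjusted p = 0.0850). In both, all IUHG libraries were above all control libraries. IUHG lay wholly above control in 7 members, 5 of them pro-death, and wholly below in 2, the pro-survival Mcl1 and Birc5 (14.5% and 11.3% of all genes). Of the 32 members tested, 18 were pro-death and 5 pro-survival. Mcl1 was at 114, 128 and 146 TPM in control and 102, 112 and 108 TPM in IUHG (log2 fold change -0.26 ± 0.09 (SE), adjusted p = 0.154) and Birc5 at 114, 106 and 111 TPM in control and 90.9, 102 and 95.7 TPM in IUHG (log2 fold change -0.20 ± 0.06 (SE), adjusted p = 0.114). Without control replicate 1, 7 members lay wholly above and 5 wholly below (19.5% and 17.1%), and these were not split by class. No member passed either when a library was left out, control replicate 1 included. In these gonads the germ cell marker list summed to 545 to 625 TPM in control and 714 to 881 TPM in IUHG, interstitial markers to 2433 to 2673 and 1819 to 1954 TPM and blood markers to 13725 to 16994 and 10576 to 12039 TPM (all markers of each list in both groups), and their part was not tested.

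The effect of IUHG differed between the sexes at E13.5 in 3 of the 32 members tested by the interaction (female effect minus male effect), 1 higher and 2 lower, with 5.04% and 4.84% of 17389 genes. Trp53 rose more in females (1.55) than in males (0.52), a difference of 1.03 ± 0.25 (adjusted p = 0.0204), over a shift of 0.16 in the median of all genes, and its call was lost in 5 of 12 fits that left out a library (without female control 2, male control 2 or 3, or male IUHG 1 or 2, at up to 0.0591). Over those 12 fits the difference spanned 0.78 to 1.20. Perp went the other way, with 0.50 in females and 1.73 in males (-1.23 ± 0.22, adjusted p = 0.00452), and passed whichever library was left out. Birc5 was at -0.32 in females and 0.44 in males (-0.76 ± 0.22, adjusted p = 0.0460), a call lost under FPKM, median-of-ratios scaling and quantile normalization, which left 1 higher and 1 lower, and in 9 of the 12 fits that left out a library, all but those without a female IUHG library (0.00731 to 0.105). Between stages in females (E13.5 effect minus E16.5 effect), 4 of 32 members differed, each with the higher effect at E13.5, with 2.88% and 3.29% of 20584 genes. They were Trp53 (1.45 ± 0.34, adjusted p = 0.0237), Zmat3 (1.96 ± 0.44, adjusted p = 0.0186), Phlda3 (1.32 ± 0.36, adjusted p = 0.0419) and Perp (1.45 ± 0.41, adjusted p = 0.0495). Zmat3 was at 2.21, 1.27 and 1.38 TPM in control and 0.0947, 0.351 and 0.269 TPM in IUHG at E16.5, the opposite order to E13.5, and its call was lost without control replicate 1 or 2 of E13.5 (adjusted p up to 0.0561). The call of Trp53 was lost without any control of E13.5, control replicate 2 or IUHG replicate 3 of E16.5 (up to 0.0714), and those of Phlda3 and Perp in 10 and 9 of 12 fits that left out a library (0.00889 to 0.114 and 0.00880 to 0.130). Both passed without IUHG replicate 3 of E13.5 or IUHG replicate 2 of E16.5, and Perp also without control replicate 3 of E16.5. The calls of Phlda3 and Perp were lost under FPKM, median-of-ratios scaling and quantile normalization. Under these scalings Sesn2 passed, with the E13.5 effect below the E16.5 effect, so that the split became 2 and 1.

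Other genes of the pathway were counted in 3 further lists, of 25 other p53 targets, 28 other apoptosis genes and 15 kinases and cofactors that act on p53. Each count stands beside the share of all genes called higher and lower in that comparison. In E12.5 PGCs none of them passed by limma (0.879% and 0.697%). In E13.5 female PGCs 2 of the 23 other p53 targets tested fell, and none of the 24 apoptosis genes or 15 kinases and cofactors passed (1.06% and 1.99%). They were Ddb2, which recognises ultraviolet damage, at 93.5, 103 and 97.99 TPM in control and 28.3, 22.9 and 38.1 TPM in IUHG (log2 fold change -1.72 ± 0.22, adjusted p = 0.00640), and Dcxr, a carbonyl reductase, at 27.3, 36.8 and 41.1 TPM in control and 12.7, 12.1 and 14.8 TPM in IUHG (log2 fold change -1.33 ± 0.24, adjusted p = 0.0229). In E13.5 male PGCs 5 of 24 p53 targets rose and 5 fell, 3 of 23 apoptosis genes rose and 6 fell, and 2 of 14 kinases and cofactors fell, where 15.2% of all genes rose and 18.0% fell, and nothing particular to the lists is read from these counts. Among them, Casp6, an executioner caspase, was at 17.5, 23.0 and 20.7 TPM in control and 45.4, 45.6 and 44.7 TPM in IUHG (log2 fold change 1.12 ± 0.09, adjusted p = 3.10e-05), and Dcxr at 3.18, 4.81 and 3.89 TPM in control and 10.1, 9.16 and 9.35 TPM in IUHG (log2 fold change 1.10 ± 0.14, adjusted p = 0.000316). Ddit4, an inhibitor of mTORC1, was at 14.3, 16.2 and 15.9 TPM in control and 7.15, 9.02 and 7.96 TPM in IUHG (log2 fold change -0.87 ± 0.11, adjusted p = 0.000284), and Pltp, a phospholipid transfer protein, at 10.7, 11.1 and 9.38 TPM in control and 5.70, 5.03 and 6.30 TPM in IUHG (log2 fold change -0.77 ± 0.12, adjusted p = 0.000907).

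At E16.5 in female PGCs 2 of 24 other p53 targets rose and 1 fell, and 1 of 24 other apoptosis genes rose (2.56% and 3.08% of all genes). Ddb2 was at 141, 128 and 138 TPM in control and 261, 197 and 226 TPM in IUHG (log2 fold change 0.74 ± 0.12, adjusted p = 0.010), above control where it had been below at E13.5. Ckap2, a spindle-associated protein, was at 25.0, 17.6 and 28.6 TPM in control and 48.1, 51.7 and 42.5 TPM in IUHG (log2 fold change 0.99 ± 0.20, adjusted p = 0.0255). Tigar, which lowers glycolysis, was at 13.3, 12.6 and 12.7 TPM in control and 3.35, 5.27 and 5.42 TPM in IUHG (log2 fold change -1.31 ± 0.26, adjusted p = 0.0255). In E16.5 male PGCs 1 of 24 p53 targets rose and 1 fell and 3 of 26 apoptosis genes rose (3.38% and 2.54% of all genes). Those named are Bnip3, a mitophagy receptor, with 116, 111 and 128 TPM in control and 158, 167 and 171 TPM in IUHG (log2 fold change 0.48 ± 0.07, adjusted p = 0.0108), Aifm1, a mitochondrial flavoprotein, with 206, 196 and 196 TPM in control and 251, 241 and 237 TPM in IUHG (log2 fold change 0.28 ± 0.06, adjusted p = 0.0256), and Siva1, the p53 target that fell, with 491, 436 and 441 TPM in control and 401, 362 and 363 TPM in IUHG (log2 fold change -0.28 ± 0.07, adjusted p = 0.0452). In gonads 1 of 24 apoptosis genes rose (1.43% of all genes rose). It was Parp1, a sensor of DNA breaks, at 168, 185 and 179.6 TPM in control and 227, 223 and 217 TPM in IUHG (log2 fold change 0.32 ± 0.05, adjusted p = 0.0200).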

How the data were processed

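Gonad libraries were bulk RNA-seq of E13.5 female gonads, and PGC libraries were Smart-seq2 of sorted Oct4-EGFP cells. Per the methods, the authors trimmed reads with Trim Galore and aligned gonad reads with HISAT2 and quantified them with StringTie. For PGCs the submitters' processing notes name STAR, featureCounts, DESeq2, FastQC and mm39. The gonad gene positions fit GRCm38, whereas the methods name mm9, and none are printed. The deposited tables, 1 per library, give TPM, FPKM and coverage for each gene. TPM from the authors was the measure analysed, deposited FPKM served as an alternative, and deposited coverage (an unscaled signal) gave the aligned bases.

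Groups followed the labels. log2(TPM + 1) was tested with limma 3.58.1 (R 4.3.3, two-sided, empirical Bayes with a trend) over genes whose mean reached 1 TPM in a group of the comparison, with Benjamini-Hochberg adjustment over all of them. A member passed at an adjusted p under 0.05. Fold changes on this scale understate changes of low genes. Exact permutation of 3 against 3 cannot go below 0.10 and was not used. The fits recovered 77.5% to 100% of 200 genes with a simulated log2 change of 2, drawn from genes of higher level and lower variance. Recovery of smaller changes or of low genes was not simulated. Members and lists were chosen with earlier results of these data known. All 34 members are accounted for, those that passed with values. Of the other pathway genes, at most 2 that rose and 2 that fell with the lowest p per comparison were named. Marker sums add the TPM of 8 germ cell, 8 pregranulosa, 6 Sertoli, 6 interstitial, 8 blood and 4 Y-linked genes. Python 3.11.15 was used for tables and for the promoter search. Alternatives tried were quantile normalization, median-of-ratios scaling, FPKM, a replicate block, no filter, a pseudocount of 0.1, 1 fit over all PGC groups, an adjusted p under 0.01 with a fold above 2 in PGCs (in gonads under 0.05 and a log2 change of at least 1), the same PGC thresholds on the unadjusted p, as the methods name no adjustment (added after the data were seen), and leaving out each library.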

Additional observations from a re-analysis of the deposited data

Results flagged for a closer look

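The effect of IUHG (log2 scale, limma) differed between groups in 7 results, by a test of the difference itself. Between the sexes these were 3 of the 32 members tested, where 5.04% of all genes were higher and 4.84% lower. Between stages they were 4 of 32, where 2.88% were higher and 3.29% lower. Between the sexes at E13.5, as female minus male effect, Trp53 differed by 1.03 (adjusted p = 0.0204), Perp by -1.23 (adjusted p = 0.00452) and Birc5 by -0.76 (adjusted p = 0.0460). Between E13.5 and E16.5 in females, as earlier minus later effect, Trp53 differed by 1.45 (adjusted p = 0.0237), Zmat3 by 1.96 (adjusted p = 0.0186), Phlda3 by 1.32 (adjusted p = 0.0419) and Perp by 1.45 (adjusted p = 0.0495). Of these, Perp between the sexes was called whichever of the 12 libraries was left out. In such fits Trp53 kept its call in 7 and Birc5 in 3 between the sexes. Between stages Trp53 kept it in 7, Zmat3 in 10, Phlda3 in 2 and Perp in 3. Birc5 between the sexes, and Phlda3 and Perp between stages, were lost under FPKM, median-of-ratios scaling and quantile normalization.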

How the results depend on the processing

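Of 30 member results called between IUHG and control or by interaction, 27 kept their call on FPKM, 27 with median-of-ratios scaling, 27 with quantile normalization, 25 with a pseudocount of 0.1, 14 without the filter on low TPM and 16 in 1 fit over all PGC groups, and none changed direction under these settings. Of 118 results between control groups, 104 to 116 kept their call under them, and 3 changed direction. Leaving out 1 library kept 127 calls of the first kind and lost 95, and kept 657 of the second and lost 51.

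Counts of members called moved by over 1.5 times in these cases, where the cause was not tested. Without the filter they were 0 (E13.5 females), 1 (E16.5 females), 1 (E16.5 males), 1 (sex interaction) and 1 (stage interaction), and with a pseudocount of 0.1 the count was 2 in E16.5 females. In 1 fit over all PGC groups, for which no share of all genes is given, they were 11 (E13.5 females), 4 (E13.5 males), 12 (E16.5 females), 0 (E16.5 males), 5 (sex interaction) and 12 (stage interaction). At an adjusted p under 0.01 with a fold above 2 (no fold asked of interactions), stricter by construction, they were 0, 2, 0 and 0 for E13.5 females and males and E16.5 females and males, 6 and 5 for E13.5 female and male controls against E12.5, 8 and 16 for the female and male step to E16.5, and 1 and 0 for the sex and stage interactions. At an unadjusted p under 0.01 with a fold above 2, chosen after seeing the data, they were 2, 1 and 0 in E13.5 males and E16.5 females and males.

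Leaving out 1 library gave 0 to 1 members called at E12.5, 0 to 2 in E13.5 females, 10 to 13 in E13.5 males, 1 to 4 in E16.5 females, 0 to 1 in E16.5 males and 0 in gonads. It gave 1 to 7 for the sex interaction and 0 to 7 for the stage interaction. Between controls it gave 13 to 17 (E13.5 female against E12.5), 17 to 20 (E13.5 male against E12.5), 12 to 14 and 25 to 28 (female and male steps to E16.5), and 19 to 22 between the sexes at either stage.

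Replicate numbers are shared between groups, but same-numbered libraries did not deviate together in every pair of any comparison (correlations of -0.0846 to 0.126), so no pairing was taken. With a replicate block, 23 of the 30 calls were kept and the count in E16.5 males was 0. In the other comparisons of IUHG and control the block gave 1 (E13.5 females), 14 (E13.5 males) and 3 (E16.5 females).

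With 3 libraries a group, differences well under 2-fold were often at the edge of the threshold, and a member that missed it is not shown to be equal between groups.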
